A study of Mus musculus with 8 samples.

Results

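Nuclear genes for the subunits of oxidative phosphorylation were read in regulatory T cells (Tregs, the CD4+ T cells that carry Foxp3 and restrain immune responses) taken from injured muscle and from spleen. Members were the genes of the count table whose symbols begin with Nduf followed by a, b, c, s or v and a number (complex I), Sdha to Sdhd (complex II), Uqcr (complex III), Cox4 to Cox8 (complex IV) or Atp5 (complex V). Symbols marked as a pseudogene, an antisense transcript or a clone were left out. This gave 85 of 38406 genes, with 37 in complex I, 4 in complex II, 8 in complex III, 18 in complex IV and 18 in complex V. One pseudogene, Atp5l-ps1, was left out. All mice were male C57BL/6, and all had received 0.9 µg of the fibre-killing venom toxin cardiotoxin in each of the tibialis anterior, quadriceps and gastrocnemius 4 days before harvest. Spleen Tregs therefore also came from injured animals, and no uninjured group is part of the comparison. Young mice were 2 months old and older mice were over 6 months old. The 4 groups, called Yg Sp, Ag Sp, Yg Muscle and Ag Muscle in the labels, held 2 libraries each, made from 1500 Tregs sorted in 2 rounds. The sort gate is not given in the sources used here. The design text calls the libraries biological duplicates but names neither animals nor pools. The tests therefore take in the library spread alone, which may be partly technical.

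Complexes I to IV pass electrons from NADH and succinate to oxygen, and complexes I, III and IV pump protons across the inner mitochondrial membrane. Complex V, the ATP synthase, uses that proton gradient to make ATP. The subunits come from nuclear genes and, for all complexes but II, from a few genes of the mitochondrial genome, and several complex IV subunits exist as ubiquitous and tissue-restricted isoforms. Tregs are known for relying more on oxidative metabolism than other activated CD4+ T cells do.

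Some members held known motif letters near their starts, which the naming rule did not use; no test of enrichment was made. In the RefSeq promoter table (GRCm38.p6, 250 bases before to 50 after each start), 66 members had 71 windows of 300 bases. The NRF1 (nuclear respiratory factor) consensus, 10 letters that read the same on both strands, was in 5 of these 66 genes, or 7.58%, against 1.07% of all 27025 genes in the table. The ETS motif bound by GABPA, CCGGAAG on either strand, was in 16 (24.2%) against 9.93%. The YY1 motif, AAGATGGC on either strand, was in 9 (13.6%) against 3.19%. A match is a description of the letters and not evidence of binding. The 5 NRF1 stretches, one or more from each complex but II, are given on the gene's strand, with the motif in capitals and its position relative to the start site (position 1).
Ndufa11 (chr17:56717692-56717721, plus strand, -60): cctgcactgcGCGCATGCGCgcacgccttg
Uqcrc1 (chr9:108936668-108936697, plus strand, 31): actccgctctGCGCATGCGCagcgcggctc
Cox6a1 (chr5:115349101-115349130, minus strand, -162): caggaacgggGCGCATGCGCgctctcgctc
Atp5g2 (chr15:102671070-102671099, minus strand, -42): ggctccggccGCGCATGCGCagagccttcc
Atp5k (chr5:108434430-108434459, minus strand, -50): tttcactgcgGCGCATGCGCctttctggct

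The YY1 letters fell unevenly over the complexes. They were in 7 of 32 complex I genes and 2 of 13 complex V genes, and in 0 of 3, 0 of 5 and 0 of 13 genes of complexes II, III and IV. The motif itself contains ATG, and in 8 of the 9 genes this ATG was an annotated start codon in GENCODE M21, including all 7 of complex I. The exception was Atp5j, where the match lay at -88. The complex I stretches are printed because each joins the motif (capitals) to the first codon of the protein, so the letters are also those of a translation start. These windows cannot tell the motif and the start codon apart.
Ndufa3 (chr7:3617384-3617413, plus strand, 23): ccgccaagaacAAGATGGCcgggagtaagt
Ndufa9 (chr6:126849097-126849126, minus strand, 30): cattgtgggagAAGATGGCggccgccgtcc
Ndufb8 (chr19:44555393-44555422, minus strand, 39): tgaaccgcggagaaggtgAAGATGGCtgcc
Ndufc1 (chr3:51408915-51408944, minus strand, 23): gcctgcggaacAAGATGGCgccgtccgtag
Ndufs4 (chr13:114388045-114388074, minus strand, 36): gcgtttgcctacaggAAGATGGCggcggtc
Ndufs6 (chr13:73328433-73328462, minus strand, 34): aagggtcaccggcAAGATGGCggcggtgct
Ndufs7 (chr10:80249462-80249491, plus strand, 25): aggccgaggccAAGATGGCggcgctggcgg

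Of the 85 members, 76 passed the filter on low counts and 9 did not. Atp5l2, Cox8b, Ndufa13 and Ndufa4l2 were at 0 in all 8 libraries, and Cox8c, Cox4i2, Cox6a2, Cox6b2 and Cox7a1 were read a few times. All 13 mitochondrially encoded subunits were at 0 in every library, so only the nuclear side of each complex could be described. Ndufa13, an accessory subunit needed to assemble complex I, is annotated at chromosome 8, 69894180 to 69902558, wholly within the span of Yjefn3 (69887788 to 69902712) on the same strand. Yjefn3 held 375 and 510 counts in young spleen, 982 and 587 in older spleen, 556 and 347 in the young and 589 and 342 in the older muscle libraries. On that strand, 0% of the exonic bases of Ndufa13 overlapped exons of another gene in GENCODE M21. On either strand the overlap was 30.0%, with Tssk6 on the plus strand, and 28.5% of its stretches of 50 bases were shared with other genes. Whether strand was used in counting is not given. Ndufb8 held 16 to 49 counts beside 66 to 170 for Gm20538, which overlaps 4.3% of its exonic bases on the same strand. Both neighbours were looked up after the member counts were seen, and how reads at these places were assigned was not tested. The naming rule also took Atp5sl, now known as a complex I assembly factor, and Atp5s, a coupling factor of the ATP synthase rather than a core subunit. It took Atp5l2 as well, which GENCODE M21 lists as a processed pseudogene, Atp5l2-ps. Complexes were assigned by symbol, so Ndufa4 and Ndufa4l2 were kept with the Nduf names of complex I.

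Where a subunit has a ubiquitous and a tissue-restricted isoform, the Tregs of both organs read the ubiquitous form. Cox4i1, the subunit through which complex IV activity is tuned to ATP, had 559 and 620 counts in young spleen, 1061 and 676 in older spleen, 682 and 544 in the young and 565 and 394 in the older muscle libraries. Its partner Cox4i2, a lung and hypoxia form, had 0 to 5 counts per library. The ubiquitous forms Cox6a1, Cox7a2 and Cox8a were read at over 100 counts in every library.

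Their heart and skeletal muscle partners were nearly unread. Cox6a2 was at 0 in 6 libraries and at 4 and 2 counts in the older muscle libraries. Cox7a1 had 0 to 5 counts and was highest in a spleen library, and Cox8b was at 0 throughout. The limit that a count of 0 allows, 3 counts over the libraries of a group, was 0.636 CPM (counts scaled to library size by trimmed mean of M-values) in young spleen, 0.427 in older spleen, 0.669 in young muscle and 0.594 in older muscle. It covers counting error only. The testis forms Cox6b2 and Cox8c stayed at 0 to 7 and 0 to 2 counts, and Cox7b2 passed the filter with 2 to 25 counts.

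**Figure D1:**
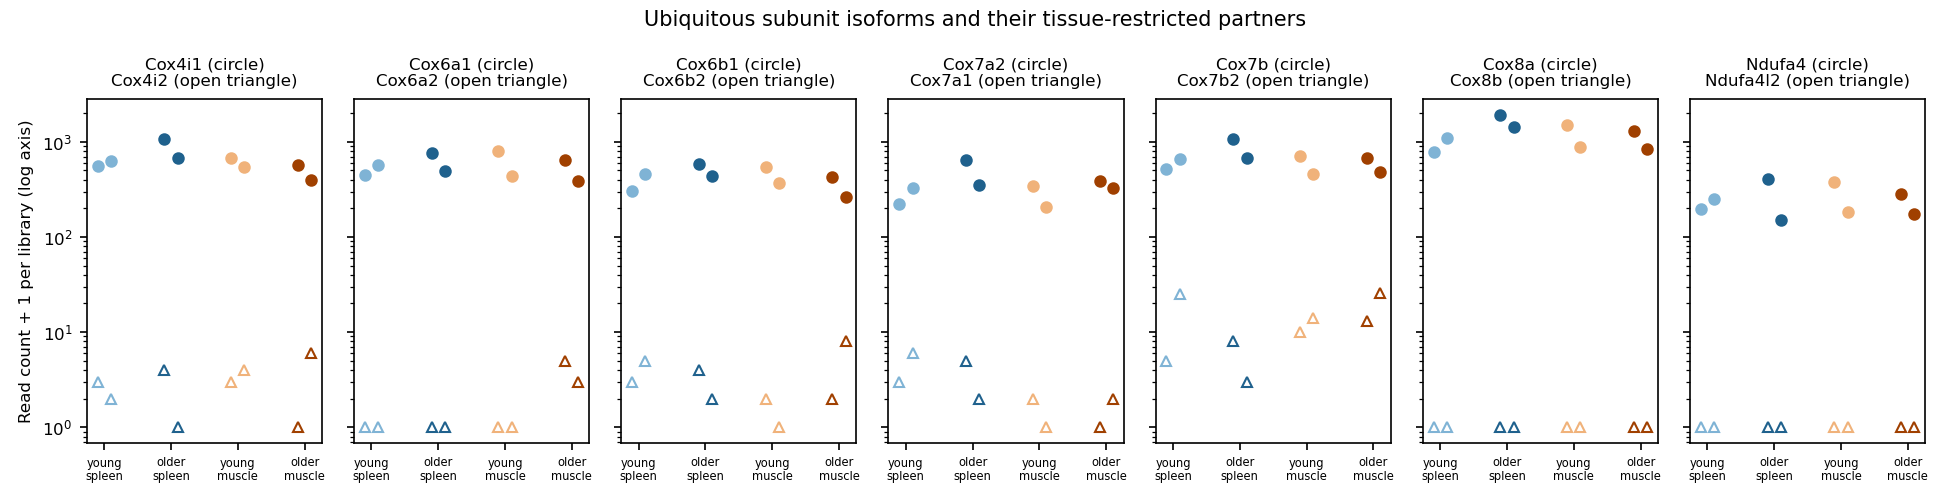
Read counts plus 1 per library (log axis) of 7 pairs of isoforms, with the ubiquitous form as filled circles and its tissue-restricted partner as open triangles, and colours for the 4 groups. Cox7b2 lies at 2 to 25 counts and the other restricted partners at 7 or fewer, and every ubiquitous form shown lies above 100.

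Levels within a complex differed widely between subunits. Per kilobase of the chosen transcript, the mean over 8 libraries was highest for Ndufa6 in complex I (762 CPM per kb), Sdhb in complex II (111), Uqcrh in complex III (1021), Cox8a in complex IV (821) and Atp5g3 in complex V (489). Among the members that passed the filter on low counts, the lowest were Ndufs1 (15.1), Sdhc (23.6), Uqcrfs1 (47.3), Cox7b2 (8.93) and Atp5s (3.76). The medians per kb were 81.8 for complex I, 37.6 for complex II, 181 for complex III, 278 for complex IV and 183 for complex V. The 3 genes for the c subunit of the ATP synthase ring encode the same mature protein, and their levels per kb were 142 for Atp5g1, 308 for Atp5g2 and 489 for Atp5g3. Dividing by length assumes that reads cover the whole transcript, which was not tested.

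Sequence shared with other genes limits some of these levels. Of 84 members with an annotated transcript, 46 shared at least 1 stretch of 50 bases with another gene, 33 of them with at least 1 pseudogene, and 20 shared over 20% of their stretches. The shares were 84.8% for Atp5l (14 other genes, of which 12 are pseudogenes), 100% for Atp5g2, 66.0% for Atp5g1 and 19.8% for Cox7a2l, but 0% for Atp5g3, Ndufa5 and Sdha. In the table the copies had few counts of their own: over the libraries Gm10221 had 0 to 2 and Gm4853 and Atp5l-ps1 had 0 (copies of Atp5l), Gm6612 had 0 to 5 and Gm10039 and Gm12337 had 0 (Atp5g1), and Gm10175 and Gm10231 had 0 to 1 each (Atp5g2). How reads that fit both a gene and its copy were counted is not given, so the values of the first 3 are uncertain in level.

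The summed level of all members was similar in the 4 groups relative to the spread between libraries. It was 11586 and 11798 CPM in young spleen, 11775 and 10591 in older spleen, 12692 and 9839 in the young and 10785 and 8614 in the older muscle libraries. These sums corresponded to 0.948% to 1.21% of all counts in a library. The highest and the lowest sums were both in muscle, and every pair of groups overlapped except young spleen and older muscle.

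**Figure D2:**
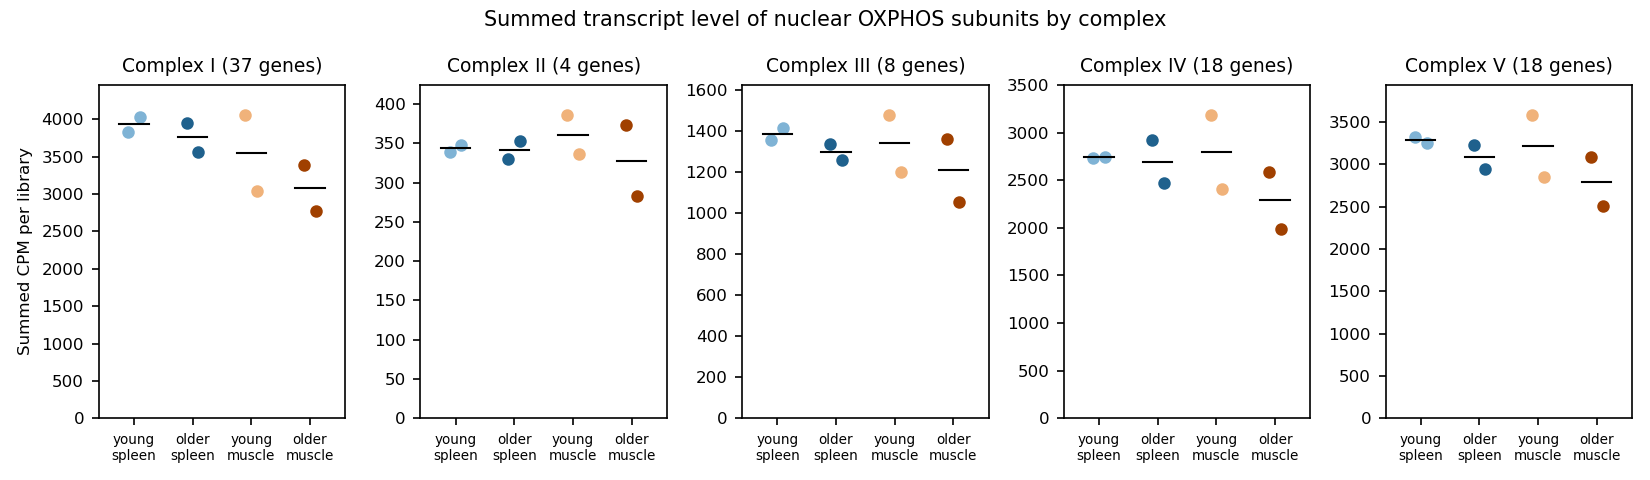
Summed CPM of the members of each complex per library (points) with the mean of the 2 libraries (line), by group. In complex I the spleen libraries lie at 3567 to 4035 CPM, and 1 young muscle library lies at 4060 while the other muscle libraries lie at 2776 to 3387.

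The muscle libraries differed among themselves across nearly the whole set. In young muscle 66 of 76 measured members were higher in replicate 1 than in replicate 2, with a median difference of 0.39 on the log2 scale, while the median over all genes was 0.01. In older muscle 66 of 76 were higher in replicate 1 (median 0.30), in older spleen 51 (0.17) and in young spleen 37 (-0.03). Young muscle replicate 1 also stood apart in markers of other cells. The 13 myeloid markers summed to 1479 counts there, against 113 to 480 in the other libraries, and the 7 fibroblast and satellite cell markers to 979 against 27 to 229. The 14 muscle fibre markers summed to 105 to 488 counts, of which Ttn alone held 43 to 450. The other 13 are a split made after the values were seen. They summed to 16.4 and 18.2 CPM in young spleen and 9.32 and 19 in older spleen. The same 13 summed to 51.1 and 40.5 in the young and 32.8 and 49.9 in the older muscle libraries. Every muscle library lay above every spleen library in this split only, and not over the 14. Within the 13, only Atp2a1 had more counts in every muscle library (15 to 51) than in every spleen library (1 to 6). The others overlapped or tied in counts. Mylpf was at 5 to 26 counts in spleen and 3 to 18 in muscle, and Tnnt3 at 3 to 22 and 13 to 26. The creatine kinase gene Ckm had 0 to 8 counts. The 3 erythroid markers summed to 57.0 and 20.5 CPM in young spleen, 109.8 and 148 in older spleen, 39.8 and 5.99 in the young and 3.35 and 10.1 in the older muscle libraries, and were thus highest in older spleen. All 6 Treg markers were read in every library, at 5116 to 11828 counts in sum. The part of these other cells in the results was not tested, and in such bulk samples fewer cells and less RNA per cell cannot be told apart.

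**Figure D3:**
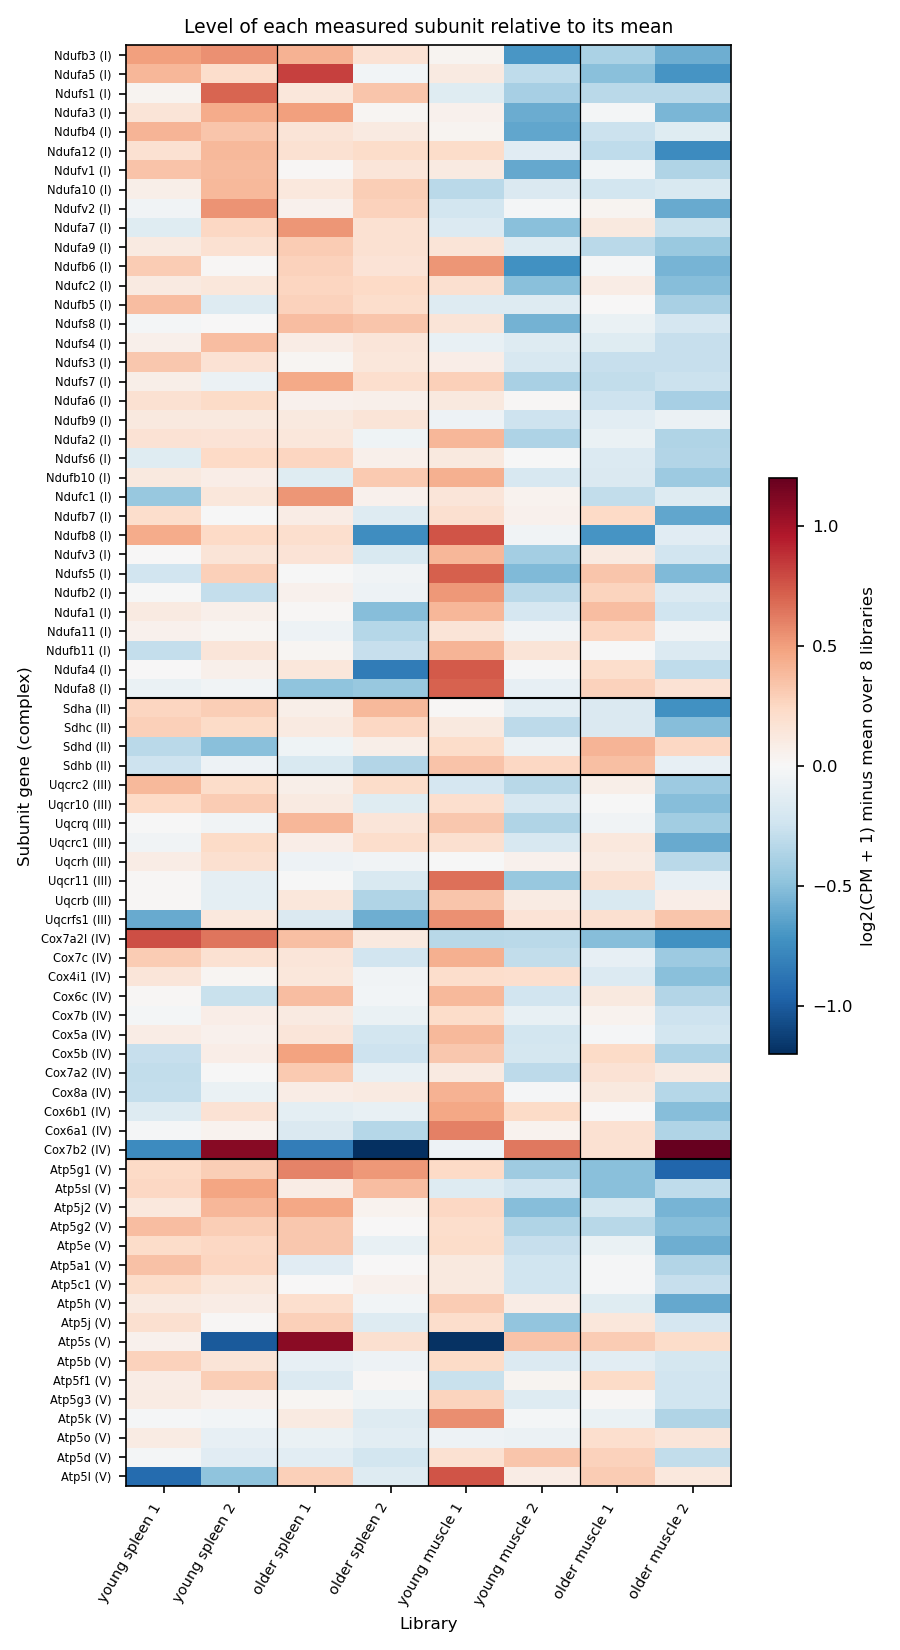
log2(CPM + 1) of 75 measured members minus its mean over the 8 libraries, in rows by complex (horizontal lines) and ordered within a complex by level in muscle, with libraries in columns by group (vertical lines). Young muscle replicate 1 is above its partner for most members, and Cox7a2l and Ndufb3 are high in both spleen groups.

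Muscle and spleen Tregs of young mice were then compared to ask which subunits differ between a tissue and a lymphoid Treg. Few did: Atp5l was higher in muscle, and Cox7a2l and Ndufb3 were lower. Thus 3 of 76 members, or 3.95%, passed, against 22.3% of all 14772 tested genes, of which 11.4% were higher and 10.9% lower (edgeR's quasi-likelihood test, Benjamini-Hochberg adjusted p at 0.05). The members' median log2 fold change was -0.10, beside 0.07 over all genes, but it was 0.01 with library totals as the only scaling and 0.09 without young muscle replicate 2. At an unadjusted p under 0.05, 5 members were higher and 8 lower, beside 19.4% and 17.0% of all genes.

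Cox7a2l encodes a relative of the complex IV subunit COX7A2 that links complexes III and IV in supercomplexes, and C57BL/6 mice are known to carry a shortened allele of it. The gene lies on chromosome 17, 83501918 to 83517330, in GENCODE M21. Its level was 514 and 469 CPM in young spleen, 385 and 325 in older spleen, 238 and 239 in the young and 210 and 181 in the older muscle libraries. Every spleen library was above every muscle library. The log2 fold change from spleen to muscle was -1.04 ± 0.16 (SE; edgeR adjusted p = 0.00025) in young and -0.86 ± 0.16 (edgeR adjusted p = 0.0017) in older mice. Its close relative Cox7a2 did not follow it, at 115 ± 16.2 CPM in young spleen and 120 ± 24.6 in young muscle (SD, n = 2), and the difference between the 2 genes was not tested.

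Atp5l encodes subunit g of the membrane part of the ATP synthase (chromosome 9, 44912557 to 44920742). Its level was 98.6 and 134 CPM in young spleen, 229 and 168 in older spleen, 316 and 200 in the young and 232 and 204 in the older muscle libraries. The young spleen libraries were below all 6 others. The difference between young muscle and young spleen was 1.15 ± 0.24 (edgeR adjusted p = 0.004), while in older mice it was 0.13 ± 0.23 (edgeR adjusted p = 0.71). As given above, most of its sequence is shared with pseudogenes. Atp5l carried the ETS letters in both parts of its RefSeq window, before and after the start site, printed here in capitals.
Atp5l upstream (chr9:44920936-44920965, minus strand, -212): acttcaccgatCTTCCGGaccaacatgaat
Atp5l downstream (chr9:44920700-44920729, minus strand, 25): tgccgcgggtcCTTCCGGgggtgacattca

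Ndufb3, an accessory subunit of the complex I membrane arm (chromosome 1, 58586384 to 58595964), was at 78.5 and 81.8 CPM in young spleen, 74.8 and 63.1 in older spleen, 57.1 and 34.0 in the young and 42.5 and 36.8 in the older muscle libraries. The spleen libraries were again all above the muscle libraries. The log2 fold change was -0.81 ± 0.26 (edgeR adjusted p = 0.037) in young and -0.80 ± 0.26 (edgeR adjusted p = 0.042) in older mice. Both values were close to the threshold, and each call held in 7 of 15 alternatives, with adjusted p of 0.0049 to 0.26 in young and 0.0095 to 0.25 in older mice. The Cox7a2l call in young mice held in 15 of 15, and that of Atp5l was lost only without young spleen replicate 1 (adjusted p = 0.076, against 8.2e-07 to 0.076 over its alternatives). The counts moved with single libraries: 8 members were lower without young muscle replicate 1, 1 was lower when young muscle replicate 2 or any single spleen library was left out, 0 were higher without young spleen replicate 1 and 3 were higher without young muscle replicate 2.

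**Figure D4:**
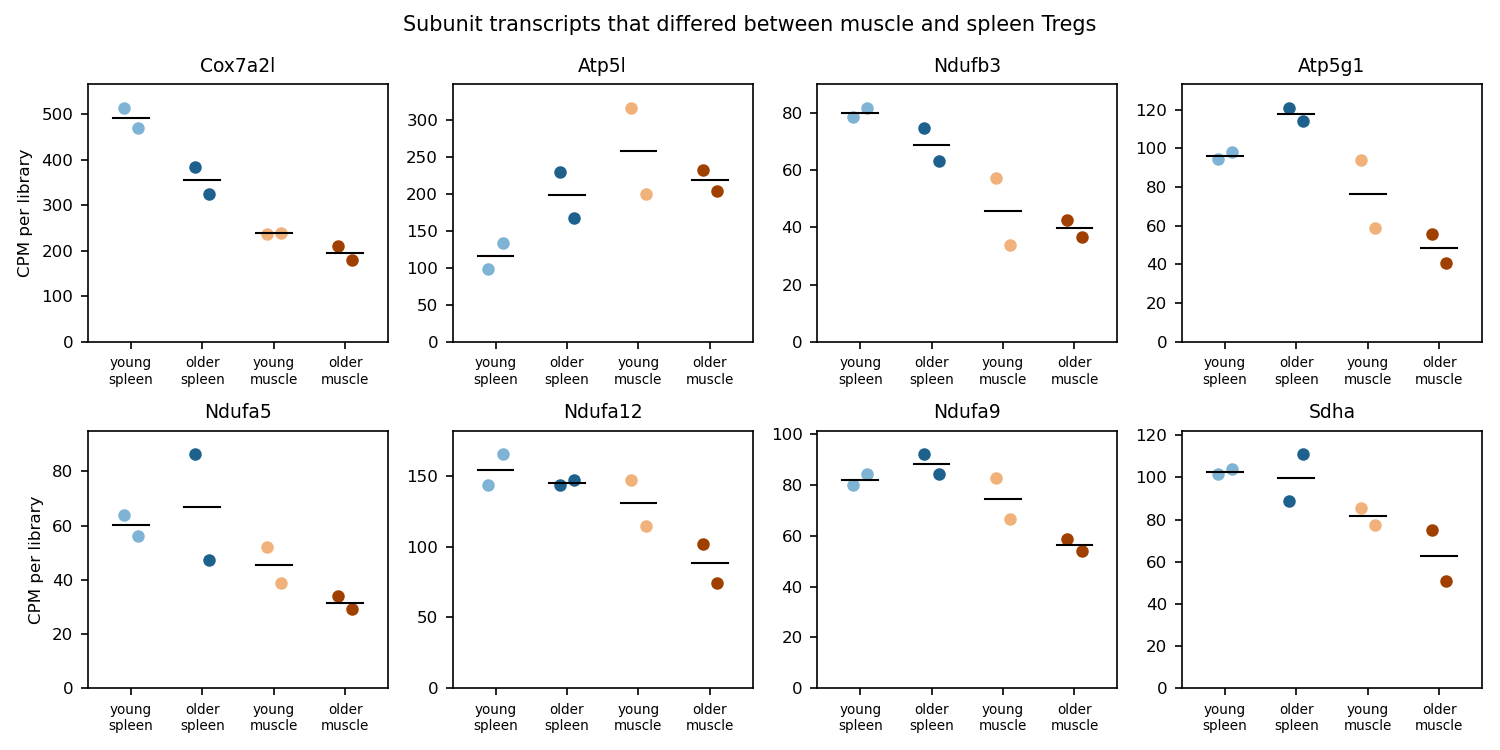
CPM per library (points) and group mean (line) of 8 members that passed the test between muscle and spleen in young or older mice. Cox7a2l and Ndufb3 lie higher in all 4 spleen libraries than in all 4 muscle libraries, and Atp5l is lowest in young spleen.

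In older mice 0 of 76 members were higher and 8 were lower in muscle. The 8 are 10.5% of the members, near the 9.27% of all tested genes that were lower, while 9.57% of all genes were higher. Of the 8, 5 belong to complex I, among them Ndufa5, Ndufa12, Ndufa9 and Ndufb3. Complex I held 35 of the 76 measured members, of which these 5 are 14.3%. Those of other complexes were Sdha, Cox7a2l and Atp5g1. In either direction 18.8% of all tested genes passed. DESeq2 called 0 higher and 5 lower (all genes 11.1% and 7.37%), and at an unadjusted p under 0.05 edgeR gave 4 higher and 20 lower (all genes 18.0% and 16.5%). The median log2 fold change was -0.27 for the members and -0.40 for complex I, beside 0.03 over all genes. In the other complexes the median ran from -0.17 in complex V to -0.10 in complex II. By library, the members' median log2 CPM was 6.81 and 6.77 in older spleen and 6.72 and 6.42 in older muscle. The SDs of these library medians, combined over the 2 groups, came to 0.21, which is of similar size to the -0.27. Both libraries of 1 organ were above both of the other for 37 members higher in spleen and 7 higher in muscle, while over all tested genes 32.4% and 33.0% did so.

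Atp5g1 had the largest of these differences. It is 1 of 3 genes for the c subunit, whose ring turns as protons pass, and lies on chromosome 11, 96068852 to 96075670. Its level was 94.4 and 98.0 CPM in young spleen, 121 and 114 in older spleen, 94.1 and 58.9 in the young and 55.9 and 40.6 in the older muscle libraries. The older muscle libraries were the lowest of the 8 and the older spleen libraries the highest. The tissue difference was -1.28 ± 0.24 (edgeR adjusted p = 0.002) in older mice and -0.32 ± 0.24 (edgeR adjusted p = 0.34) in young mice. For the other c subunit genes it was -0.60 ± 0.20 in Atp5g2 (edgeR adjusted p = 0.054) and -0.09 ± 0.17 in Atp5g3 (edgeR adjusted p = 0.72) in older mice.

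Ndufa5, an accessory subunit of the peripheral arm, was at 86.3 and 47.2 CPM in older spleen and 33.9 and 29.2 in older muscle, a difference of -1.09 ± 0.30 (edgeR adjusted p = 0.02). Ndufa12, which sits near the NADH-oxidising part, was at 143 and 147 CPM in older spleen and 102 and 74.4 in older muscle, a difference of -0.72 ± 0.20 (edgeR adjusted p = 0.021). Ndufa9, next to the quinone site, was at 91.9 and 84.1 against 58.8 and 54.1 CPM, a difference of -0.64 ± 0.20 (edgeR adjusted p = 0.039). For none of these 3 did the older groups overlap. Their calls were less stable: that of Ndufa5 held in 13 of 15 alternatives, that of Ndufa12 in 12 and that of Ndufa9 in 8. The Ndufa9 call was lost with DESeq2 (DESeq2 adjusted p = 0.1). All other losses among these 3 came when a single library was left out. The count of 8 fell to 1 without older spleen replicate 1 (Atp5g1), to 3 without older spleen replicate 2 or older muscle replicate 2, and to 5 without either young spleen library. It rose to 13 without young muscle replicate 2, and Atp5g1 passed in all 15 alternatives.

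**Figure D5:**
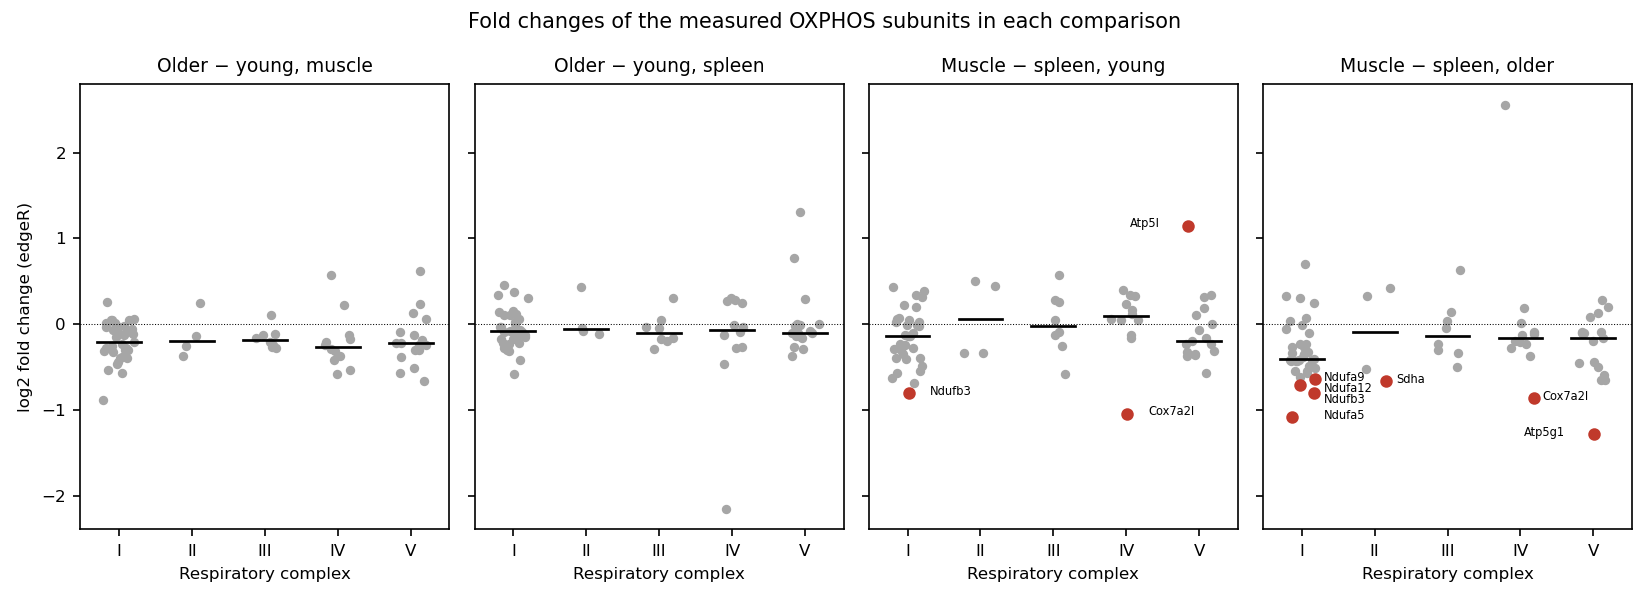
log2 fold changes (edgeR) of 75 measured members by complex in 4 comparisons, with members past an adjusted p of 0.05 in red and named, others in grey, and the median of each complex (over all 76) as a line. In older mice the complex I median lies at -0.40 between muscle and spleen, and the 2 age comparisons hold 0 red points.

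Complex II, which oxidises succinate and is wholly nuclear in origin, was split. The flavoprotein gene Sdha was at 101 and 104 CPM in young spleen, 88.8 and 111 in older spleen, 85.7 and 77.4 in the young and 74.9 and 50.7 in the older muscle libraries. The iron-sulfur protein gene Sdhb was at 104 and 119, 109 and 97.0, 157 and 148, and 160 and 116 CPM in the same order. At both ages the organs did not overlap for any of the 4 genes, with Sdha and the membrane anchor gene Sdhc lower in muscle and Sdhb and the other anchor gene Sdhd higher. Over all tested genes 31.7% were non-overlapping and higher and 30.0% lower in young mice, and 33.0% and 32.4% in older mice. Non-overlap at 1 age alone therefore does not set a gene apart. The share of genes that did so in the same direction at both ages was not counted. Only Sdha in older mice passed the test (-0.66 ± 0.22, edgeR adjusted p = 0.047), in 7 of 15 alternatives (adjusted p of 0.014 to 0.31). Sdhb differed by 0.45 ± 0.19 in young (edgeR adjusted p = 0.11) and 0.42 ± 0.19 in older mice (edgeR adjusted p = 0.13). With library totals as the only scaling Sdhb passed in young mice (adjusted p = 0.031, against 0.031 to 0.46 over its alternatives). The windows of Sdhb and Sdhd held the ETS letters, that of Sdha held none of the 3 motifs, and Sdhc had no window. The window of Ndufs3, a core subunit of complex I, held the ETS letters too. Ndufs3 differed by -0.30 in young and -0.35 in older mice and did not pass the threshold. Whether the letters went with a direction over the 16 genes that held them was not tested.
Sdhb (chr4:140961266-140961295, plus strand, 7): gctcggagaaaCCGGAAGcggccttccact
Sdhd (chr9:50603877-50603906, minus strand, -46): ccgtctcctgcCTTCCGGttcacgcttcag

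Other core and catalytic subunits are given by their values. Ndufs1, which holds iron-sulfur clusters of complex I, differed by -0.69 ± 0.29 in young (edgeR adjusted p = 0.1) and -0.58 ± 0.29 in older mice (edgeR adjusted p = 0.17). In complex III, the core protein gene Uqcrc2 differed by -0.58 ± 0.21 in young mice (edgeR adjusted p = 0.057) and the Rieske iron-sulfur protein gene Uqcrfs1 by 0.64 ± 0.26 in older mice (edgeR adjusted p = 0.1). Uqcrfs1 was at 40.7 and 67.8 CPM in young spleen, 54.9 and 41.1 in older spleen, 91.3 and 69.9 in the young and 71.1 and 78.7 in the older muscle libraries. All 4 muscle libraries lay above the spleen libraries. Over all tested genes 31.7% in young and 33.0% in older mice were non-overlapping and higher in muscle. The share that was so at both ages was not counted. The catalytic ATP synthase genes Atp5a1 and Atp5b differed by -0.36 ± 0.17 (edgeR adjusted p = 0.14) and -0.17 ± 0.16 (edgeR adjusted p = 0.47) in young mice, and Atp5c1 by -0.23 ± 0.20 (edgeR adjusted p = 0.44). A p that misses the threshold does not show that levels were alike.

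Age in muscle gave no member past the threshold. Of 76 members 0 rose and 0 fell by edgeR, against 2.02% of all tested genes (1.14% higher, 0.88% lower). DESeq2 also gave 0 and 0, against 1.57% and 1.69%. At an unadjusted p under 0.05, 0 were higher and 7 lower in older mice, beside 7.6% and 7.69% of all genes. These 7 were Cox4i1, Atp5h, Cox6b1, Ndufa12, Ndufa6, Atp5g1 and Atp5k. The members' median log2 fold change was -0.22, beside 0.03 over all genes, and 61 of 76 (80.3%) lay below 0, beside 47.9% of all genes. The complex medians ran from -0.26 in complex IV to -0.18 in complex III.

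Cox4i1 had the smallest p, at 274 and 272 CPM in young muscle and 210 and 167 in older muscle. The 2 ages did not overlap, as for 2999 of all 14772 tested genes in this direction. The Cox4i1 difference was -0.53 ± 0.16 (edgeR adjusted p = 0.12). Atp5h, a stator subunit of the ATP synthase, was at 188 and 162 against 137 and 99.4 CPM, a difference of -0.57 ± 0.19 (edgeR adjusted p = 0.16). Ndufa12 differed by -0.57 ± 0.20 (edgeR adjusted p = 0.18). In complexes II and III the smallest p belonged to Sdha (-0.37 ± 0.22, edgeR adjusted p = 0.45) and Uqcr10 (-0.26 ± 0.21, edgeR adjusted p = 0.6). The median rested on 2 libraries: it was -0.02 without young muscle replicate 1, the library rich in myeloid and fibroblast markers, and -0.06 without older muscle replicate 2. It was -0.41 without young muscle replicate 2, where Atp5g1 and Atp5k passed, and -0.39 without older muscle replicate 1, where Atp5h, Cox4i1 and Cox6b1 passed.

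Age in spleen gave 0 members higher and 0 lower by edgeR, against 4.24% of all tested genes (2.08% higher, 2.17% lower). At an unadjusted p under 0.05, 1 was higher and 2 lower, beside 9.12% and 7.53% of all genes. DESeq2 called 1 higher, Atp5l, and 1 lower, Cox7a2l, beside 2.58% and 2.94%. Atp5l differed between older and young spleen by 0.77 ± 0.24 (edgeR adjusted p = 0.093) and Cox7a2l by -0.47 ± 0.15 (edgeR adjusted p = 0.11). The 2 ages did not overlap for either gene. Of all 14772 tested genes, 4252 were non-overlapping and higher and 3539 lower, so this alone does not set the 2 genes apart. The erythroid markers also lay higher in both older than in both young spleen libraries, and their part in these values was not tested. The catalytic genes Atp5a1 and Atp5b stood at 439 ± 20.3 and 444 ± 27.8 CPM in young spleen and 339 ± 22.1 and 362 ± 6.58 in older spleen (SD, n = 2), differences of -0.37 ± 0.17 (edgeR adjusted p = 0.27) and -0.29 ± 0.16 (edgeR adjusted p = 0.37). The median of the members was -0.08, beside 0.05 over all genes, but it was 0.08 (beside 0.21) with library totals as the only scaling and 0.01 without older spleen replicate 2.

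The age effects in muscle and spleen did not differ for any member past the threshold: 0 were higher and 0 lower by edgeR, against 2.52% of all tested genes (1.35% higher, 1.17% lower). DESeq2 gave 0 and 0, against 1.73% and 1.58%. At an unadjusted p under 0.05, 0 were higher and 5 lower, beside 5.9% and 7.1% of all genes, among them Atp5l, Atp5g1, Cox8a and Cox4i1. For Atp5l the age effect in muscle minus that in spleen was -1.02 ± 0.33 (edgeR adjusted p = 0.15) and for Atp5g1 -0.96 ± 0.33 (edgeR adjusted p = 0.18). The same numbers are the difference between the tissue effects at the 2 ages. Atp5l and the other members that passed in only 1 age are therefore not shown to differ in tissue effect by age. Without young muscle replicate 2, Atp5l and Atp5g1 passed, and the members' median of -0.15 became 0.06 without young muscle replicate 1.

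Other genes of the pathway showed few calls in the age comparisons and more between organs. Of 37 measured assembly factors, 0 were higher and 3 lower in young muscle than in young spleen (8.11%, beside 22.3% of all tested genes and 10.9% lower), and 0 and 4 in older mice (10.8%, beside 18.8% and 9.27% lower). Ndufaf4, a complex I assembly factor, fell from 32.7 ± 2.57 CPM in young spleen to 4.71 ± 0.403 in young muscle (SD, n = 2; edgeR adjusted p = 0.00078). The complex II factor Sdhaf1 was lower in muscle at both ages, by -1.27 ± 0.38 in young (edgeR adjusted p = 0.028) and -1.89 ± 0.38 in older mice (edgeR adjusted p = 0.0035). Bcs1l, which inserts the Rieske protein into complex III, was lower in older mice at 4.32 ± 0.733 CPM in muscle and 21.8 ± 2.08 in spleen (edgeR adjusted p = 0.01). None of the 37 passed for age in muscle or spleen by edgeR or DESeq2, with 0 and 1 higher and 0 and 0 lower at an unadjusted p under 0.05.

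Cytochrome c1, encoded by Cyc1 and outside the naming rule, was lower in muscle of older mice (-1.22 ± 0.30, edgeR adjusted p = 0.011), the only call among 5 further subunits and carriers. Of 13 tricarboxylic acid cycle genes, only Suclg2 in young mice passed (-1.11 ± 0.27, edgeR adjusted p = 0.0094). This was 7.69%, beside 22.3% of all tested genes, and in older mice 0 passed, beside 18.8%. Of 16 regulators of mitochondrial biogenesis, 2 were higher and 4 lower in young muscle than in young spleen (37.5%, beside 22.3% of all tested genes), and 2 and 0 in older mice (12.5%, beside 18.8%). The ETS partner gene Gabpb1 was higher in muscle at both ages, by 0.75 ± 0.22 (edgeR adjusted p = 0.024) and 0.77 ± 0.21 (edgeR adjusted p = 0.021), and the nuclear receptor gene Esrrg by 2.07 ± 0.48 (edgeR adjusted p = 0.0076) and 1.57 ± 0.42 (edgeR adjusted p = 0.02). In young mice the mitochondrial transcription genes Tfam and Polrmt were lower in muscle, by -1.01 ± 0.34 (edgeR adjusted p = 0.044) and -1.19 ± 0.33 (edgeR adjusted p = 0.019). Tfb1m and Gabpb2 were the others that were lower. For age in muscle 1 of the 16 regulators (6.25%) lay below 0, beside 47.9% of all genes, with a median of 0.43, beside 0.03, and 0 passed by edgeR or DESeq2, with 1 higher and 0 lower at an unadjusted p under 0.05.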

How the data were processed

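RNA of Tregs was amplified by in vitro transcription and PCR, per the labels' protocols, with no molecular identifiers described, so counts are of reads. The authors deposited 1 table of whole-number counts per gene for 8 libraries. TopHat2, TopHat, Picard, SAMtools 0.1.19, HTSeq and mm10 are named in the submitters' processing notes, while neither the annotation nor the use of strand is given in the sources used here. Totals were 1969982 to 4008622 counts. In R 4.3.3, edgeR 4.0.16 (filterByExpr, TMM) fitted 1 robust quasi-likelihood model to all libraries, with 14772 genes, 4 residual degrees of freedom and a biological coefficient of variation of 0.288. The 5 contrasts were tested two-sided with Benjamini-Hochberg adjustment over all genes at 0.05. An SE is the log2 fold change over the root of F. TMM-scaled totals gave the CPM values. The scripts were tested on simulated data. DESeq2 1.42.0 was an alternative, beside other scalings, filters, the groups compared alone, a replicate block and each library left out.

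Members and lists were chosen with earlier results of these data known. Genes named were those past the threshold (at most 8 per contrast and direction), the smallest p per complex and contrast, isoform pairs, core subunits and the highest level per kb. Transcript lengths and positions came from GENCODE M21 (GRCm38, counted from 1): 82 members matched by symbol, 2 by an older symbol, and Atp5o had several annotated genes. Transcripts were principal, best supported and shortest. The values of 1 member, and the promoter windows of members on 1 chromosome, are not reported here.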

Additional observations from a re-analysis of the deposited data

How the results depend on the processing

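Over the alternatives of 29 named fold changes, 371 values stayed on the same side of the threshold, 40 lost a call and 19 gained one, and none changed sign after a call. Counts of members moved with the tool. For age in spleen, 1 was higher with library totals, with DESeq2, with no filter and with only the groups compared, and 1 was lower with DESeq2 and 2 with only the groups compared. For the difference of age effects, 1 was lower with no filter. In young mice between organs, 4 were higher with library totals, and the 2 lower became 1 with library totals, DESeq2 or only the groups compared and 4 with no filter or with the replicate block. In older mice, 1 was higher with DESeq2 size factors in edgeR, library totals, the stricter filter or the replicate block and 2 with only the groups compared, and the 8 lower became 5 with DESeq2 and 13 with no filter. The members' median log2 fold change for age in spleen was 0.0823 with library totals, a scaling that moved the median of all genes by 0.12, 0.17, 0.11 and 0.07 (age in muscle, age in spleen, organs in young and in older mice). The cause was not tested.

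Leaving out 1 library, where the lone sample is assumed to vary like the other groups, gave 0 to 0 higher and 0 to 3 lower for age in muscle, 0 to 1 and 0 to 1 for age in spleen, 0 to 0 and 0 to 2 for the difference, 0 to 3 and 1 to 8 between organs in young mice, and 0 to 1 and 1 to 13 in older mice. Genes called for age in muscle ranged from 49 to 1067 around 298, for age in spleen from 155 to 1840 around 627, for the difference from 159 to 689 around 372, and between organs from 1483 to 3845 around 3290 in young and from 974 to 3944 around 2783 in older mice.

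The labels do not say whether same-numbered libraries are paired, and their deviations correlated at -0.07 to 0.26 over the pairs of groups, highest between young and older muscle. With the replicate block, members called were 0 and 0 for age in each organ, 1 and 4 in young and 1 and 10 in older mice, and all genes called for age in muscle rose from 298 to 479. The counts between organs stand without the calls over all genes in that fit. They therefore do not show a change particular to the members. Depth limited the restricted isoforms that did not pass the filter, where counts of 0 to 7 allow no comparison of groups.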

Other observations

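Ribosomal protein genes moved further between the organs than the respiratory subunits did. Of 80 measured cytosolic ribosomal protein genes, 1 was higher and 68 lower in muscle than in spleen of young mice (86.2%, beside 22.3% of all tested genes; median log2 fold change -0.89), and 1 and 50 in older mice (63.8%, beside 18.8%; median -0.58), by edgeR's quasi-likelihood test with Benjamini-Hochberg adjustment. With age in spleen 0 rose and 39 fell (48.8%, beside 4.24% of all tested genes), and with age in muscle 0 rose and 3 fell (3.75%, beside 2.02%). DESeq2 called 57 lower with age in spleen and 16 with age in muscle, beside 2.94% and 1.69% of all genes. The medians were -0.55 and -0.30, beside -0.08 and -0.22 for the respiratory subunits. Many of these genes have processed pseudogenes, and how their reads were counted is not given.

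Mitochondrial ribosomal proteins, which translate the mitochondrially encoded subunits, were lower in muscle more often than higher. Of 75 measured genes, 3 were higher and 16 lower in young mice (25.3%, beside 22.3% of all tested genes), and 3 and 8 in older mice (14.7%, beside 18.8%). Over all tested genes 11.4% were higher and 10.9% lower in young mice, and 9.57% and 9.27% in older mice. In older mice the share of these genes that was lower was thus near that of all genes. Mrpl38 was at 70.9 ± 11.5 CPM in young spleen and 19.8 ± 11.8 in young muscle (SD, n = 2; edgeR adjusted p = 0.0019). Mrpl24 had a narrow spread, at 154 ± 0.834 CPM in young spleen and 102 ± 1.41 in young muscle (edgeR adjusted p = 0.022). Mrpl33 and Mrpl4 were higher in muscle at both ages, Mrpl33 by 0.57 ± 0.19 and 0.90 ± 0.19 and Mrpl4 by 0.62 ± 0.18 and 0.65 ± 0.18. With age in muscle, Mrpl34 alone passed, at 85.1 ± 0.262 CPM in young and 43.3 ± 2.00 in older mice (edgeR adjusted p = 0.046).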
